A study of Homo sapiens with 12 samples.

Results

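The genes described here code for proteins that take alkyl groups directly off DNA or RNA. With them are a helicase that unwinds DNA for ALKBH3 and a glycosylase that cuts out methylated purines. They were taken by symbol from the table of gene expression: MGMT, ALKBH1, ALKBH2, ALKBH3, ALKBH5, ASCC3 and MPG, 7 of the 31654 genes with a usable symbol. RNA was sequenced from 4 human glioblastoma lines with 3 libraries each. U251TR is a temozolomide-resistant line derived from U251MG, and U87TR is a temozolomide-resistant line derived from U87MG. According to the labels each was obtained in the laboratory by exposing its parent to temozolomide again and again at rising concentration. The labels give no concentration, do not say whether the resistant cells are clones or were harvested in the drug, and describe the same medium and serum for all 4 lines. Each parent has 1 resistant line, and resistance and whatever else changed while a line was derived cannot be told apart. Whether a line's 3 libraries were grown as separate cultures is not in the labels, so p-values measure the spread between these libraries, which may be technical.

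Temozolomide is a methylating drug. The lesion held responsible for most of its killing is a methyl group on the oxygen of guanine, which MGMT transfers to itself in a reaction that uses the protein up. MGMT is silenced by promoter methylation in many glioblastomas, and both parental lines are known for lacking it. ALKBH2 and ALKBH3 are iron- and oxoglutarate-dependent dioxygenases that oxidise methyl groups away from the base-pairing face of adenine and cytosine, ALKBH2 mainly in double-stranded and ALKBH3 in single-stranded DNA and in RNA. MPG is the glycosylase that cuts out methylated purines, the most frequent temozolomide lesions, and hands the site to base excision repair.

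The promoter of MGMT is shown because the gene was listed at 0 in every parental library and was expressed in every resistant one, and that of ALKBH2 because it was lower in both resistant lines. Both run from 250 bases before to 50 after the annotated start and come from the RefSeq promoter table of build GRCh38.p14, in which 6 of the 7 genes were matched, all but ASCC3. MGMT lies at chr10:129466991-129467290 on the plus strand and ALKBH2 at chr12:109093423-109093722 on the minus strand. Capitals mark GGGCGG on either strand (written CCGCCC on the other), the core of the GC box that the factor SP1 binds.
MGMT: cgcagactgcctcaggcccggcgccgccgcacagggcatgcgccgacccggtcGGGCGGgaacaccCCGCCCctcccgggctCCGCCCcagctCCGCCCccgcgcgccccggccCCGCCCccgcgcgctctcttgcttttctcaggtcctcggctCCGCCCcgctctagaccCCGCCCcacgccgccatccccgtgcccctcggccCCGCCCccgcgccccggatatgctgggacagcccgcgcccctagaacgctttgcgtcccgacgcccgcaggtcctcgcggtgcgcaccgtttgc
ALKBH2: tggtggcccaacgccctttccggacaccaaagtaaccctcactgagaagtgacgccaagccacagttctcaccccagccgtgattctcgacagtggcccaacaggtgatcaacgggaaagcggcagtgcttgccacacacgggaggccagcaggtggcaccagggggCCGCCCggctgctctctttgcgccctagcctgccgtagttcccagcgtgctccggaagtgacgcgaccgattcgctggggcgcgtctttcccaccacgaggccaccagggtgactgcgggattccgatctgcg
The MGMT window held 8 such matches and 45 CG dinucleotides, and 96.5% of the 35116 promoters in that table held fewer CG. The ALKBH2 window held 1 match and 24 CG, and 45% of all promoters held at least 1 match. The other 4 matched promoters held between 0 and 2 matches and between 21 and 39 CG. A match is a description of the letters, and DNA methylation was not measured in the files used here.

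Values are FPKM, fragments scaled to gene length and to the library's total, which is a unit per length and allows levels of different genes to be set side by side. Differences are on the log2(FPKM + 1) scale from limma, with the standard error (SE), and adjusted p is Benjamini-Hochberg over all 15449 genes tested, with a threshold of 0.05. Folds are these differences taken back from the log2 scale, so they are ratios of FPKM + 1 and not of FPKM. All 7 genes passed the filter of 1 FPKM in at least 3 libraries. The values carry no counts, so the depth is unknown. The number of genes at or above 1 FPKM ranged over 13135 to 14122 per library. U251MG replicate 2 stood apart, with rank correlations of 0.977 and 0.978 with the other U251MG libraries, against 0.993 between those. U87MG replicate 3 did so less, with 0.983 and 0.987 against 0.993. Of 5 glioblastoma line markers, VIM, NES and CD44 were expressed in every line, while SOX2 averaged 0.203 FPKM in U87TR and 0 FPKM in U87MG and GFAP 1.75 and 0.753 FPKM. Of 9 markers of other cell types, 7 were in the table, and their summed level was 11.1 to 12.2 FPKM in U251TR, 6.36 to 8.87 in U251MG, 1.52 to 2.32 in U87TR and 1.05 to 1.37 in U87MG. In the U251 lines nearly all of that was CDH5, at 11.2 FPKM in U251TR and 6.69 FPKM in U251MG, while PTPRC of blood cells averaged at most 0.037 FPKM in a line. In such bulk RNA, fewer cells of a type and less RNA per cell cannot be told apart.

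MGMT was expressed in both resistant lines, at levels far apart, and was listed at 0 in both parents. Its values were 8.73, 7.7 and 9.58 FPKM in U251TR, and it was listed at 0 in all 3 U251MG libraries. Its values were 232.22, 227.26 and 212.66 FPKM in U87TR, against 0 in each of the 3 U87MG libraries. All resistant libraries lay above all parental ones, and each U87TR library lay above each U251TR library. The difference from the parent passed the test in U251TR (adjusted p = 1.372e-10) and in U87TR (adjusted p = 1.289e-13). MGMT passed the filter only through the resistant libraries. Its parental values had no spread, so these p-values do not measure variation between parental libraries. No fold is given against a group at 0. The size of the log2 difference there is set by the amount added to FPKM: with 0.1, 1 and 5 added, the MGMT difference was 6.45, 3.27 and 1.45 in U251TR and 11.1, 7.81 and 5.52 in U87TR. Values are listed to 2 decimals with 0.01 FPKM as the smallest above 0. None of 20 genes that every cell uses was at 0 in a library, the lowest of their values being 7.67 FPKM (LDHA). Genes at such levels could hardly be listed at 0, so they do not test the zeros of MGMT. Between the resistant lines the MGMT log2 difference was 4.54, higher in U87TR (SE 0.09, adjusted p = 1.353e-12), or 23.3-fold. With both parents at 0, the same 4.54 is the difference between the changes (adjusted p = 5.035e-10). In U87TR 426 genes of the table had a higher mean than MGMT, in U251TR 8890 did, and 97.2% and 42.4% of the tested genes lay below it. Of the 2760 genes listed at 0 in all 6 parental libraries, MGMT and IFNL1, which codes for a lambda interferon, were at 1 FPKM or more in all 6 resistant libraries. IFNL1 averaged 2.52 FPKM in U251TR and 1.16 FPKM in U87TR, and it is named after its values were seen.

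**Figure D1:**
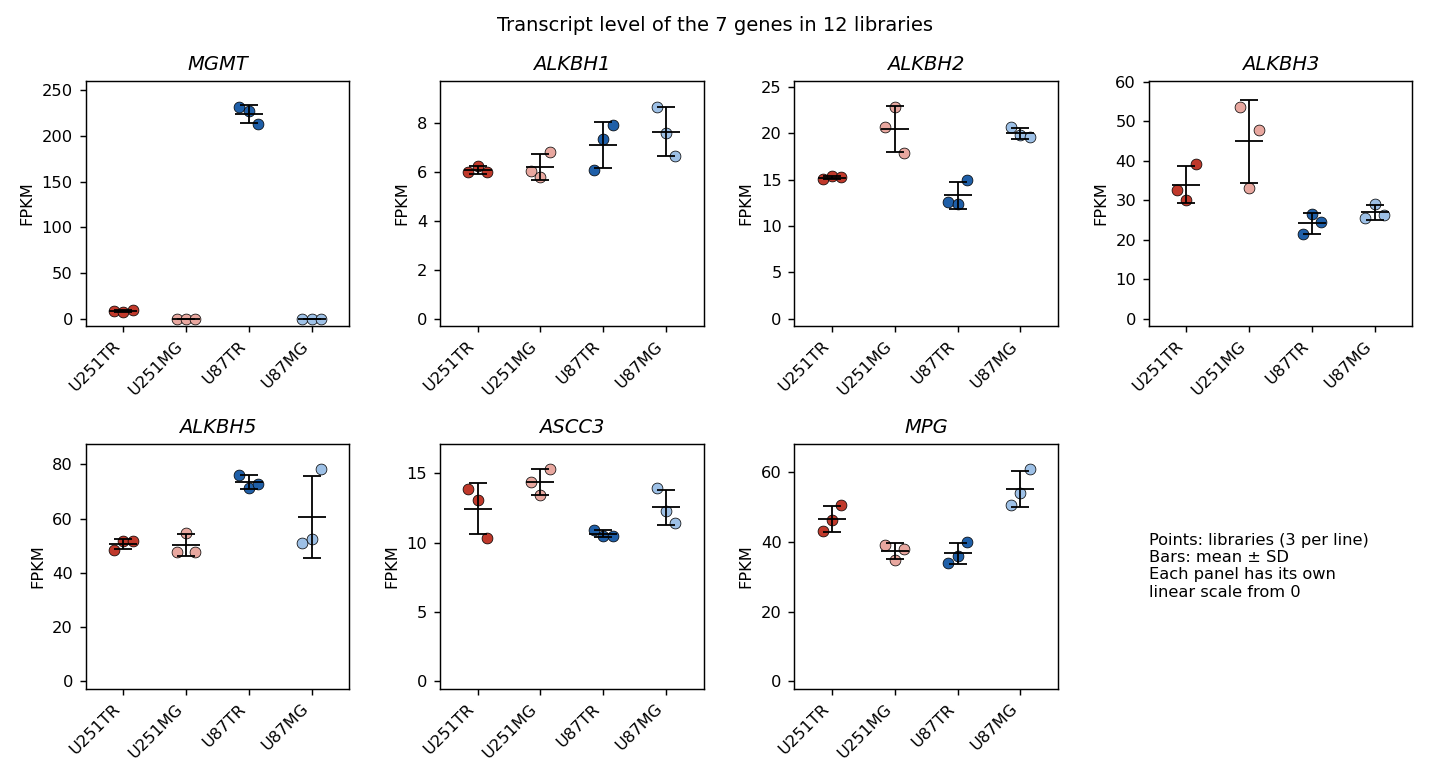
FPKM (vertical axis, linear and from 0, with a scale of its own in each panel) of the 7 genes in the 12 libraries, as points, with the mean and SD of the 3 libraries of each line. MGMT is at 0 in U251MG and U87MG, at 8.67 FPKM on average in U251TR and between 212.66 and 232.22 FPKM in U87TR, while ALKBH2 is lower in each resistant line than in its parent.

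Among the other 6 genes, ALKBH2 fell in both resistant lines, and MPG rose in U251TR and fell in U87TR. ALKBH1, ALKBH3, ALKBH5 and ASCC3 did not pass in either comparison. With MGMT, 2 of the 7 genes rose and 1 fell in U251TR, and 1 rose and 2 fell in U87TR. These are 42.9% of the 7 in each comparison, against 53.2% of all genes tested that passed in U251TR and 27.8% in U87TR. The median log2 difference of the 7 was -0.03 in U251TR and -0.15 in U87TR, beside 0.10 and -0.05 for all genes tested. The U87TR libraries carry codes from another number block than the other 9, so block and line cannot be told apart in any comparison with U87TR. The balance of calls moved with scaling. Of the genes called in U251TR 63.2% were higher in the FPKM as given, 49.3% under quantile normalization, 72.1% once the sums were made equal as in TPM and 50.9% with median-of-ratios factors. In U87TR these shares were 38.1%, 48.8%, 46.2% and 45.2%, for the difference between the changes 32.4%, 48.6%, 27.9% and 46.0%, and for U87TR against U251TR 35.1%, 48.7%, 33.4% and 48.4%. Rescaling to TPM moved the median of all genes to 0.20 in U251TR, and quantile normalization moved it to -0.01. That median was -0.17 for the difference between the changes and -0.27 for U87TR against U251TR, and -0.02 in both with median-of-ratios factors.

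ALKBH2, the dealkylase of double-stranded DNA, had 15.07, 15.33 and 15.23 FPKM in U251TR, against 20.69, 22.87 and 17.91 FPKM in U251MG. In U87TR it had 12.54, 12.39 and 14.94 FPKM, against 20.62, 19.75 and 19.56 FPKM in U87MG. The lines did not overlap in either pair, and the parents overlapped (difference of U87MG from U251MG -0.03, 95% interval -0.25 to 0.19). The log2 level of ALKBH2 fell by 0.40 in U251TR (SE 0.10, adjusted p = 0.004755) and by 0.56 in U87TR (SE 0.10, adjusted p = 0.00137). The change in U87TR minus that in U251TR was -0.16 (95% interval -0.46 to 0.15, adjusted p = 0.3819). Both falls passed in every alternative run.

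ALKBH3, the dealkylase of single-stranded DNA and RNA, had 32.69, 30.13 and 39.25 FPKM in U251TR, against 53.8, 33.16 and 47.87 FPKM in U251MG. The low U251MG value came from replicate 2, the library that stood apart, and it overlapped the U251TR values. The difference of -0.37 did not pass on all libraries (SE 0.16, 95% interval -0.72 to -0.02, adjusted p = 0.06867). It passed without U251MG replicate 2 (-0.57, adjusted p = 0.001749), without U251TR replicate 3 (-0.48, adjusted p = 0.04262), with median-of-ratios factors (-0.51, adjusted p = 0.02724) and after quantile normalization (-0.45, adjusted p = 0.03018). It was smaller without U251MG replicate 1 (-0.23, adjusted p = 0.2632). In U87TR ALKBH3 had 21.43, 26.65 and 24.47 FPKM, against 25.47, 29.02 and 26.32 FPKM in U87MG, with a difference of -0.15 (95% interval -0.50 to 0.20, adjusted p = 0.5277). The U87 values overlapped.

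ASCC3 is the helicase subunit of the activating signal cointegrator complex, which unwinds DNA for ALKBH3. It had 13.89, 13.12 and 10.36 FPKM in U251TR, against 14.39, 13.43 and 15.31 FPKM in U251MG. In U87TR it had 10.93, 10.49 and 10.52 FPKM, against 13.96, 12.28 and 11.46 FPKM in U87MG. The U87 groups did not overlap and the U251 groups did, but neither difference passed: -0.20 in U251TR (95% interval -0.44 to 0.04, adjusted p = 0.1528) and -0.22 in U87TR (95% interval -0.46 to 0.03, adjusted p = 0.1778). In U251TR it passed with median-of-ratios factors (-0.33, adjusted p = 0.02134) and after quantile normalization (-0.34, adjusted p = 0.01491).

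ALKBH1 and ALKBH5 act mainly on other substrates than the lesions of temozolomide. ALKBH1 demethylates transfer RNA among other targets, and ALKBH5 removes the N6-methyl mark of messenger RNA (m6A). ALKBH1 was the least expressed of the 6, at 6.07 ± 0.153 FPKM in U251TR and 6.21 ± 0.533 FPKM in U251MG, and at 7.11 ± 0.938 FPKM in U87TR and 7.64 ± 1.01 FPKM in U87MG (SD, n = 3). Its differences of -0.03 (95% interval -0.28 to 0.23) and -0.09 (95% interval -0.34 to 0.16) did not pass. ALKBH5 had 48.36, 51.6 and 51.61 FPKM in U251TR, against 47.83, 54.78 and 47.73 FPKM in U251MG, which overlapped (difference 0.01, 95% interval -0.28 to 0.31).

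In U87TR ALKBH5 had 76.19, 71.41 and 72.68 FPKM, against 51.14, 52.4 and 78.16 FPKM in U87MG. The high U87MG value came from replicate 3, which lay above all U87TR libraries, while the other 2 lay below them. The difference of 0.30 did not pass on all libraries (SE 0.13, 95% interval 0.01 to 0.59, adjusted p = 0.1204) and was 0.50 without U87MG replicate 3 (adjusted p = 0.001042) and 0.19 without U87MG replicate 1 (adjusted p = 0.3744). The gene most like ALKBH5 over the 12 libraries was C10orf10 (current symbol DEPP1), with Pearson r = 0.977. C10orf10 had 62.21, 49.38 and 50.59 FPKM in U87TR, against 3.87, 8.37 and 57.11 FPKM in U87MG. BNIP3, a hypoxia-induced gene that neighbours MGMT, had 412.5, 368.02 and 371.45 FPKM in U87TR, against 144.32, 200.86 and 524.23 FPKM in U87MG. Both were high in U87MG replicate 3 as ALKBH5 was. For C10orf10 this follows from its choice by likeness to ALKBH5 over these same libraries. The part of that library's state in the result was not tested.

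MPG had 43.12, 46.22 and 50.5 FPKM in U251TR, against 39.13, 34.76 and 37.97 FPKM in U251MG. In U87TR it had 34.03, 35.94 and 40.02 FPKM, against 50.6, 53.99 and 60.82 FPKM in U87MG. Neither pair overlapped, and the directions were opposite. The log2 level of MPG rose by 0.31 in U251TR (SE 0.10, adjusted p = 0.01507) and fell by 0.57 in U87TR (SE 0.10, adjusted p = 0.0008472). The difference between the changes was -0.89 (SE 0.14, adjusted p = 0.0002172). The rise in U251TR did not pass with median-of-ratios factors (0.18, adjusted p = 0.1925) or without U251TR replicate 3 (0.26, adjusted p = 0.06469), while the fall in U87TR and the difference passed in every alternative run. MPG shares 451 of its 1497 annotated exon bases with NPRL3 on the other strand, and the sources used here do not say whether counting used the strand. Reads from the shared stretch may therefore not be told apart. ALKBH3 shares 75 exon bases with the pseudogene SEC14L1P1 on its own strand. MGMT shares 495 with a noncoding gene on its own strand and 286 with another on the other strand, and ALKBH5 shares 357 with a noncoding gene on the other strand. NPRL3 differed by 0.20 in U251TR (SE 0.12, adjusted p = 0.1864) and fell by 0.36 in U87TR (SE 0.12, adjusted p = 0.04585). Its levels lay well below those of MPG. It had 13.01, 17.01 and 14.34 FPKM in U251TR, against 12.17, 13.68 and 12.19 FPKM in U251MG. In U87TR it had 1.67, 1.56 and 1.4 FPKM, against 2.36, 2.61 and 1.85 FPKM in U87MG. The part of NPRL3 reads in the MPG values was not tested.

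**Figure D2:**
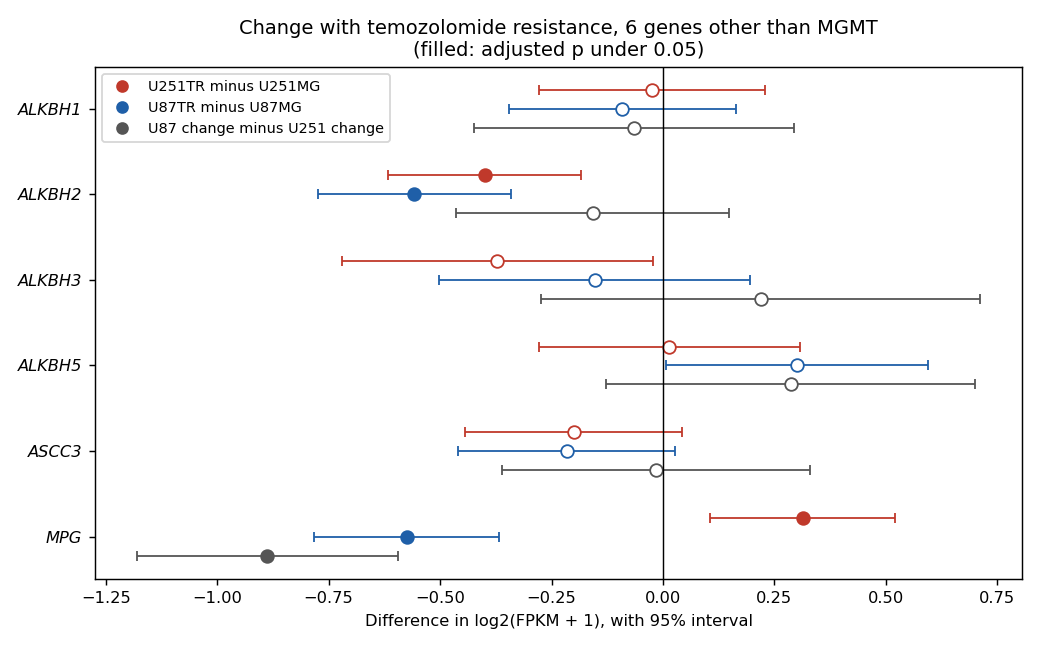
Differences in log2(FPKM + 1) with 95% intervals (horizontal axis) for the 6 genes other than MGMT, in U251TR against U251MG, in U87TR against U87MG, and for the U87 change minus the U251 change. Filled points passed at adjusted p under 0.05: ALKBH2 in both lines at -0.40 and -0.56, and MPG at 0.31 and -0.57 with a difference between the changes of -0.89.

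Over the difference between the changes, 2 of the 7 genes passed, MGMT upward and MPG downward, which is 28.6%, against 47.6% of all genes tested (15.4% upward and 32.1% downward). ALKBH3 passed there without U251MG replicate 2 (0.42, adjusted p = 0.0471) and ALKBH5 without U87MG replicate 3 (0.48, adjusted p = 0.003962). The parents differed in 2 of the 6 genes that had a value above 0, against 72.3% of all genes tested (32.2% higher and 40.1% lower in U87MG). ALKBH3 was lower in U87MG, at 26.9 ± 1.85 FPKM, than in U251MG, at 44.9 ± 10.6 FPKM (SD, n = 3; difference -0.69, adjusted p = 0.001891). MPG was higher in U87MG, at 55.1 ± 5.21 FPKM, than in U251MG, at 37.3 ± 2.26 FPKM (SD, n = 3; difference 0.55, adjusted p = 0.0002196). ALKBH1, at 0.26 (adjusted p = 0.06425), passed between the parents with median-of-ratios factors (0.35, adjusted p = 0.01849), after quantile normalization (0.34, adjusted p = 0.02754) and without U87MG replicate 3 (0.34, adjusted p = 0.02457). ALKBH5, at 0.24 (adjusted p = 0.1212), passed with median-of-ratios factors (0.35, adjusted p = 0.03782) and without U87MG replicate 1 (0.35, adjusted p = 0.04323). Between U87TR and U251TR 4 of the 7 differed, against 72.6% of all genes tested (25.5% higher and 47.1% lower in U87TR). MGMT and ALKBH5 were higher in U87TR, ALKBH5 by 0.53 on the log2 scale (adjusted p = 0.00344). ALKBH3 and MPG were lower in U87TR, by -0.47 (adjusted p = 0.01822) and -0.34 (adjusted p = 0.006642), but neither passed with median-of-ratios factors (-0.19, adjusted p = 0.3373, and -0.05, adjusted p = 0.6665) or after quantile normalization (-0.23, adjusted p = 0.2114, and -0.14, adjusted p = 0.179). The ALKBH3 difference was also lost without U251TR replicate 3 (-0.37, adjusted p = 0.0794) or U87TR replicate 1 (-0.39, adjusted p = 0.07201). Other differences between these lines were gained: ALKBH1, at 0.19 (adjusted p = 0.1565), passed with median-of-ratios factors (0.44, adjusted p = 0.005177) and after quantile normalization (0.57, adjusted p = 0.001431). ALKBH2, at -0.19 (adjusted p = 0.1089), passed without U87TR replicate 3 (-0.27, adjusted p = 0.03592), and ASCC3, at -0.20 (adjusted p = 0.1272), without U251TR replicate 3 (-0.32, adjusted p = 0.01659).

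The order of levels changed mainly through MGMT. In U87TR MGMT was the most abundant of the 7, followed by ALKBH5, MPG, ALKBH3, ALKBH2, ASCC3 and ALKBH1, with no overlap between neighbours in that order. In U251TR MGMT ranked 6 of 7, below ASCC3 and above ALKBH1, without overlap with either. In both parents MGMT was last and ALKBH5 first, though ALKBH5 overlapped the next gene, ALKBH3 in U251MG and MPG in U87MG, and in U251TR it overlapped MPG. Over the 12 libraries the highest value of a gene was 1.48 (ASCC3) to 2.51 (ALKBH3) times its lowest for the 6 genes other than MGMT. The summed FPKM of the 7 was 173.5 ± 7.87 in U251TR and 173.4 ± 8.55 in U251MG, and 389.4 ± 5.42 in U87TR and 182.8 ± 17.6 in U87MG (SD, n = 3). Without MGMT the sums were 164.9 ± 7.16 in U251TR and 173.4 ± 8.55 in U251MG, and 165.3 ± 4.75 in U87TR and 182.8 ± 17.6 in U87MG (SD, n = 3). MGMT made up 57.5% ± 1.82 of the sum in U87TR and 4.99% ± 0.408 in U251TR (SD, n = 3).

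**Figure D3:**
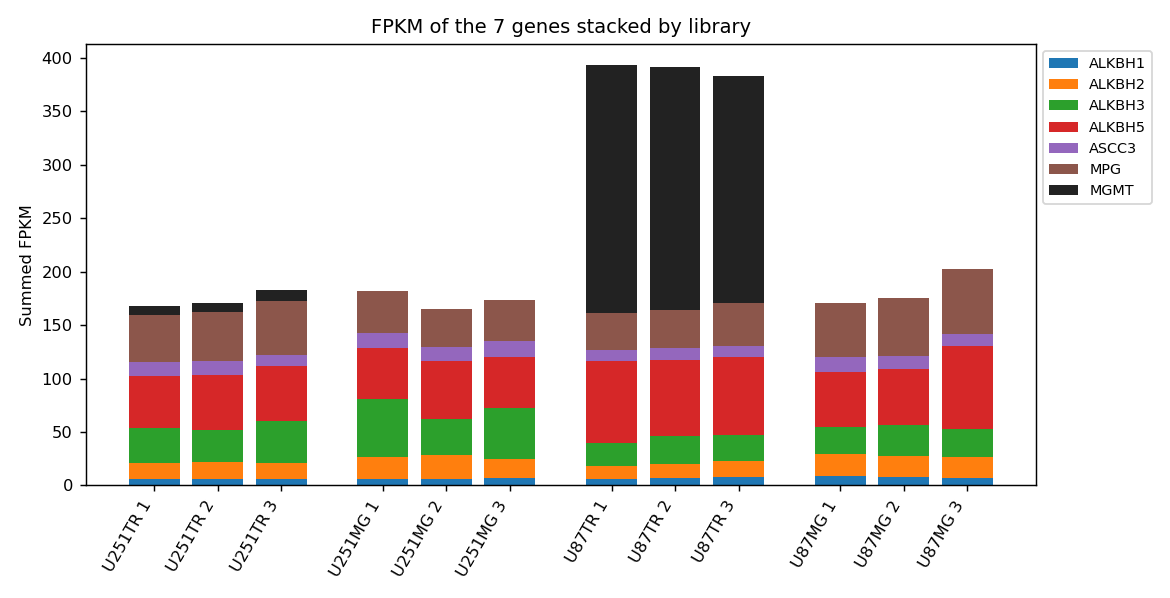
FPKM of the 7 genes stacked for each of the 12 libraries (vertical axis, summed FPKM from 0), with U251TR left of U251MG and U87TR left of U87MG. MGMT, in black, makes up 57.5% of the sum on average in U87TR and 4.99% in U251TR, and the sum of the other 6 genes averages between 164.9 and 182.8 FPKM in the 4 lines.

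The genes whose pattern was most like that of MGMT over the 12 libraries were sought among 12481 genes with a plain symbol. The libraries fall into 4 lines and share a source within each, so r is a description. KRT17, a keratin gene with close relatives, had r = 0.993, at 1.2 ± 0.083 FPKM in U251TR and 0.023 ± 0.04 FPKM in U251MG, and at 5.22 ± 1.14 FPKM in U87TR and 0.097 ± 0.059 FPKM in U87MG (SD, n = 3). SCCPDH (r = 0.970), GORAB (0.964), ETV3 (0.963) and the pseudogene ABCC6P1 (0.961) came next. SCCPDH averaged 27.0 FPKM in U251TR and 22.8 in U251MG, and 35.9 in U87TR and 24.7 in U87MG, so likeness in r came with changes far smaller than that of MGMT. Among the 7 genes, the pair of MGMT and ALKBH2 had r = -0.909. The genes most like the others were PFDN4 for ALKBH1 (r = 0.936), GTPBP3 for ALKBH2 (0.943), TRMT44 for ALKBH3 (0.972), RICTOR for ASCC3 (0.943) and MRGBP for MPG (0.952).

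The neighbours of MGMT on chromosome 10 moved less than MGMT did. Of the 8 genes of the table on each side of it, 10 were tested. In U251TR 2 of them rose and 4 fell, and in U87TR 1 rose and 3 fell. Those that rose in U251TR were JAKMIP3, by 1.86 (adjusted p = 5.385e-07), and LINC00601, by 1.38 (adjusted p = 3.727e-06). C10orf90 rose in U87TR by 0.85 (adjusted p = 0.001521). The largest fall in U87TR was that of FAM196A (current symbol INSYN2A), by 1.15 (adjusted p = 1.08e-05). MKI67, the proliferation marker gene next to it, averaged 52.8 FPKM in U251TR and 43.4 FPKM in U251MG, and 54.2 FPKM in U87TR and 43.9 FPKM in U87MG. Its differences of 0.32 and 0.30 did not pass (adjusted p = 0.1726 and 0.2651), though without U251MG replicate 2 they did, at 0.58 (adjusted p = 0.001032) and 0.30 (adjusted p = 0.03916), and the U87 difference passed on the 6 U87 libraries alone (adjusted p = 0.01653). PTPRE, a tyrosine phosphatase gene, fell by 0.82 in U251TR (adjusted p = 0.002629) and by 0.73 in U87TR (adjusted p = 0.0115), and DOCK1, an exchange factor gene, by 0.42 (adjusted p = 0.0008571) and 0.45 (adjusted p = 0.001392). EBF3, the next gene on the other side, was at 0.38 FPKM at most in any library and was not tested. Over all 549 tested genes of chromosome 10, 28.1% rose and 23.7% fell in U251TR, against 33.6% and 19.6% of all genes tested. In U87TR 14.0% rose and 17.3% fell, against 10.6% and 17.2%.

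Another 10 genes of chromosome 10 changed at least 4-fold in U87TR with 10 FPKM or more in the higher group. The nearest to MGMT among them, 91 table genes away, was C10orf118 (current symbol CCDC186), which codes for a coiled-coil protein. It had 79.45, 69.98 and 60.27 FPKM in U87TR, against 3.09, 2.05 and 2.19 FPKM in U87MG, a log2 rise of 4.37 (SE 0.17, adjusted p = 4.696e-09). In U251TR it had 7.91, 6.03 and 5.1 FPKM, against 4.95, 5.07 and 6.57 FPKM in U251MG, which overlapped (difference 0.16, adjusted p = 0.4472). The other 9 lay 212 or more table genes away. They included IFIT1, IFIT2 and IFIT3, which are interferon-induced, CH25H, a cholesterol hydroxylase gene, and AKR1C1, an aldo-keto reductase gene, and all of these rose in both lines. ANXA8, SRGN and ABCC2 rose in U87TR at 14.6-, 5.45- and 10.4-fold, with U251TR differences of -0.05, -0.11 and 0.09 that did not pass. These genes were hardly expressed in the U251 lines. Their means in U251TR and U251MG were 0.057 and 0.097 FPKM (ANXA8), 0 and 0.083 FPKM (SRGN), and 0.437 and 0.35 FPKM (ABCC2). PLAU fell by 2.03 in U87TR (adjusted p = 0.01528).

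**Figure D4:**
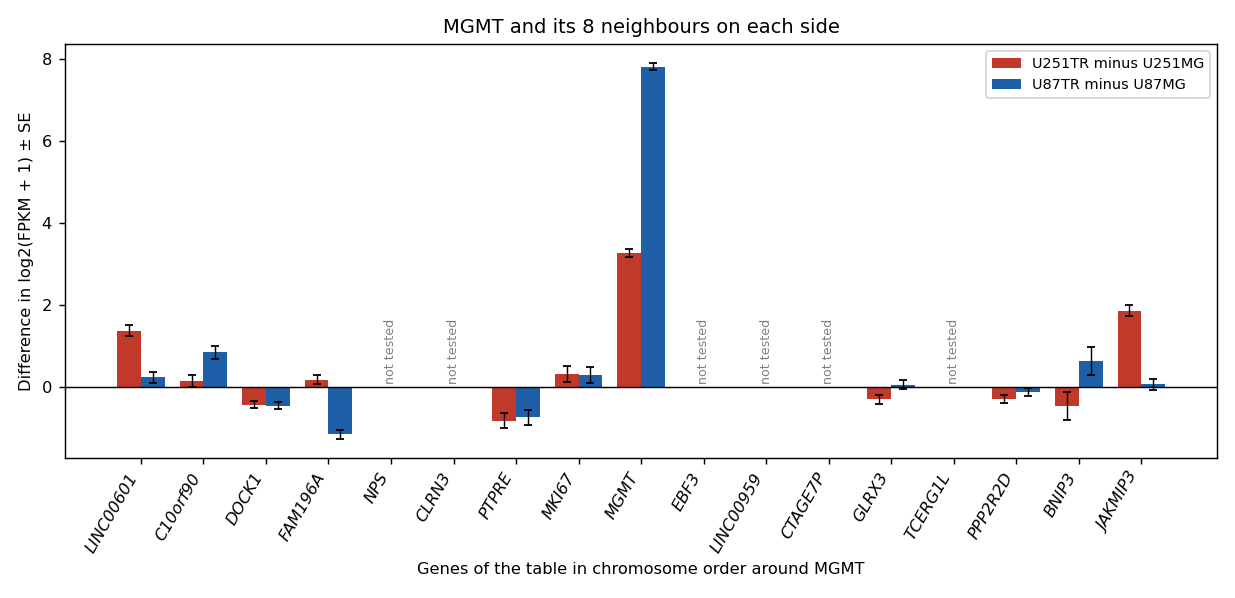
Differences in log2(FPKM + 1) with SE (vertical axis) for MGMT and the 8 genes of the table on each side of it in chromosome order, in U251TR against U251MG and U87TR against U87MG. MGMT stands at 3.27 and 7.81, with its parents at 0 and its size set by the 1 FPKM added, and no tested neighbour exceeds 1.86 in size.

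The other genes of these pathways were described by lists chosen from general knowledge, but with earlier results of these data known. Their counts stand beside 33.6% of all genes tested that rose and 19.6% that fell in U251TR, and 10.6% that rose and 17.2% that fell in U87TR. Of 5 other AlkB family genes (FTO included), 2 rose and 2 fell in U251TR, and none rose and 1 fell in U87TR. ALKBH6 averaged 18.7 FPKM in U251TR and 12.5 in U251MG and rose by 0.54 (adjusted p = 0.0029). ALKBH7, a mitochondrial member, averaged 20.8 FPKM in U251TR and 32.1 in U251MG and fell by 0.60 (adjusted p = 0.003935). FTO, the other m6A demethylase, averaged 28.8 FPKM in U251TR and 39.5 in U251MG and fell by 0.43 (adjusted p = 0.004272). ALKBH8, which modifies transfer RNA, rose in U251TR by 0.37 (adjusted p = 0.03517). The list had 1 rise in U251TR, that of ALKBH6, without U251TR replicate 1 or 2 or U251MG replicate 1 or 3 and with median-of-ratios factors or quantile normalization. ALKBH8 averaged 3.13 FPKM in U87TR and 4.69 in U87MG and fell by 0.47 (adjusted p = 0.02032). The fall was lost without U87TR replicate 3, U87MG replicate 1 or U87MG replicate 2 (adjusted p = 0.08119, 0.06576 and 0.08702) and on the 6 U87 libraries alone (adjusted p = 0.05673).

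Of 7 genes that work with ALKBH3 and ASCC3, none rose and 3 fell in U251TR, and 1 rose and none fell in U87TR. RNF113A, a ubiquitin ligase that brings the complex to alkylation damage, averaged 8.82 FPKM in U251TR and 19.4 in U251MG, a fall of 1.05 (adjusted p = 1.564e-06). USP7 and OTUD4, deubiquitinase proteins that stabilise ALKBH2 and ALKBH3, fell there by 0.76 (adjusted p = 2.459e-05) and 0.43 (adjusted p = 0.004441). In U87TR these 3 genes differed by -0.14, -0.05 and -0.07, which did not pass, and the difference between the changes passed for RNF113A (0.92, adjusted p = 0.0001195) and USP7 (0.72, adjusted p = 0.0007834). ASCC1, a subunit of the complex, rose by 0.38 in U87TR (adjusted p = 0.02306), a call lost without U87TR replicate 2, U87MG replicate 1 or U87MG replicate 2 (adjusted p = 0.1038, 0.09043 and 0.082).

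Of 9 genes that complete base excision repair after MPG, 4 rose and 2 fell in U251TR, and none rose and 4 fell in U87TR. The median log2 difference was 0.33 in U251TR and -0.37 in U87TR, beside 0.10 and -0.05 for all genes tested. XRCC1, the scaffold of the pathway, averaged 49.6 FPKM in U251TR and 26.8 in U251MG, a rise of 0.87 (adjusted p = 1.426e-05), and 23.8 FPKM in U87TR and 33.4 in U87MG, a fall of 0.47 (adjusted p = 0.003645). The difference between its changes was -1.34 (adjusted p = 1.118e-05). LIG3, the ligase that works with XRCC1, fell in U87TR by 0.49 (adjusted p = 0.003684). FEN1, the flap nuclease, rose in U251TR by 0.65 (adjusted p = 0.01088), a call lost without U251MG replicate 3 (adjusted p = 0.05066). In U251TR 5 rose and none fell after rescaling to TPM, and 2 rose and 2 fell with median-of-ratios factors. The falls in U251TR numbered 0 without U251TR replicate 1 and on the 6 U251 libraries alone, and 1 without U251TR replicate 3, U251MG replicate 1 or U251MG replicate 3. The rises numbered 6 without U251MG replicate 2 and 3 without U251MG replicate 3. In U87TR 2 fell after rescaling to TPM, after quantile normalization, or without any of U87TR replicates 1, 2 and 3 and U87MG replicates 1 and 2, while 6 fell without U251MG replicate 2.

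Of 8 DNA mismatch repair genes, whose products act on the mispair left by unrepaired methylguanine, 5 rose and 2 fell in U251TR, where 33.6% of all genes tested rose and 19.6% fell. In U87TR 0 of the 8 passed in limma, and 0 had an unadjusted p under 0.05. In U87TR 1 of them passed without U251MG replicate 2 and on the 6 U87 libraries alone. MLH3 averaged 2.19 FPKM in U251TR and 0.313 in U251MG (difference 1.29, adjusted p = 9.382e-06), PMS1 rose by 0.75 (adjusted p = 0.0001895) and MSH3 fell by 0.65 (adjusted p = 0.000265). Of 14 m6A writer and reader genes, 5 rose and 3 fell in U251TR, and 1 rose and 3 fell in U87TR. With median-of-ratios factors these were 1 and 4, and 1 and 1, so the balance of this list turned with scaling in U251TR. The calls in U251TR came to 5 without U251TR replicate 1, U251TR replicate 2 or U251MG replicate 1 and to 4 without U251MG replicate 3. Those in U87TR came to 2 without U87TR replicate 3 or U87MG replicate 2 and to 6 without U251MG replicate 2. YTHDC1, a nuclear reader, fell by 0.60 in U251TR (adjusted p = 0.0002634). WTAP, a subunit of the writer complex, was the 1 gene of the list that rose in U87TR, by 0.37 (adjusted p = 0.01265). In the FPKM as given it rose in U251TR as well, by 0.35 (adjusted p = 0.008533).

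Of 8 transcription factor and coactivator genes reported to act on MGMT, 1 rose and 3 fell in U251TR, and none rose and 5 fell in U87TR. CEBPB averaged 269.4 FPKM in U251TR and 104.3 in U251MG, a rise of 1.44 (adjusted p = 0.0001889), and 114.3 FPKM in U87TR and 230.4 in U87MG, a fall of 1.00 (adjusted p = 0.005881). RELA, a subunit of NF-kB, averaged 26.3 FPKM in U87TR and 57.8 in U87MG, a fall of 1.10 (adjusted p = 1.177e-06), and differed by -0.07 in U251TR (adjusted p = 0.473). JUN fell in both, by 0.58 (adjusted p = 0.0009161) and 0.51 (adjusted p = 0.005298). SP1, whose site is capitalised in the promoter above, differed by -0.13 in U251TR (adjusted p = 0.2081) and fell by 0.29 in U87TR (adjusted p = 0.02024). The falls in U87TR numbered 3 after rescaling to TPM, after quantile normalization or without U87TR replicate 3.

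Of 10 genes that write, read or erase DNA methylation, 1 rose and 6 fell in U251TR, and none rose and 4 fell in U87TR. Of all genes tested 33.6% rose and 19.6% fell in U251TR, and 10.6% rose and 17.2% fell in U87TR. The median log2 difference was -0.51 in U251TR and -0.27 in U87TR. TET2, which oxidises methylcytosine, fell by 0.97 in U251TR (adjusted p = 0.00015). MBD1 and MBD2, readers of methylated DNA, fell in U87TR by 0.95 (adjusted p = 4.365e-05) and 0.76 (adjusted p = 0.00126).

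**Figure D5:**
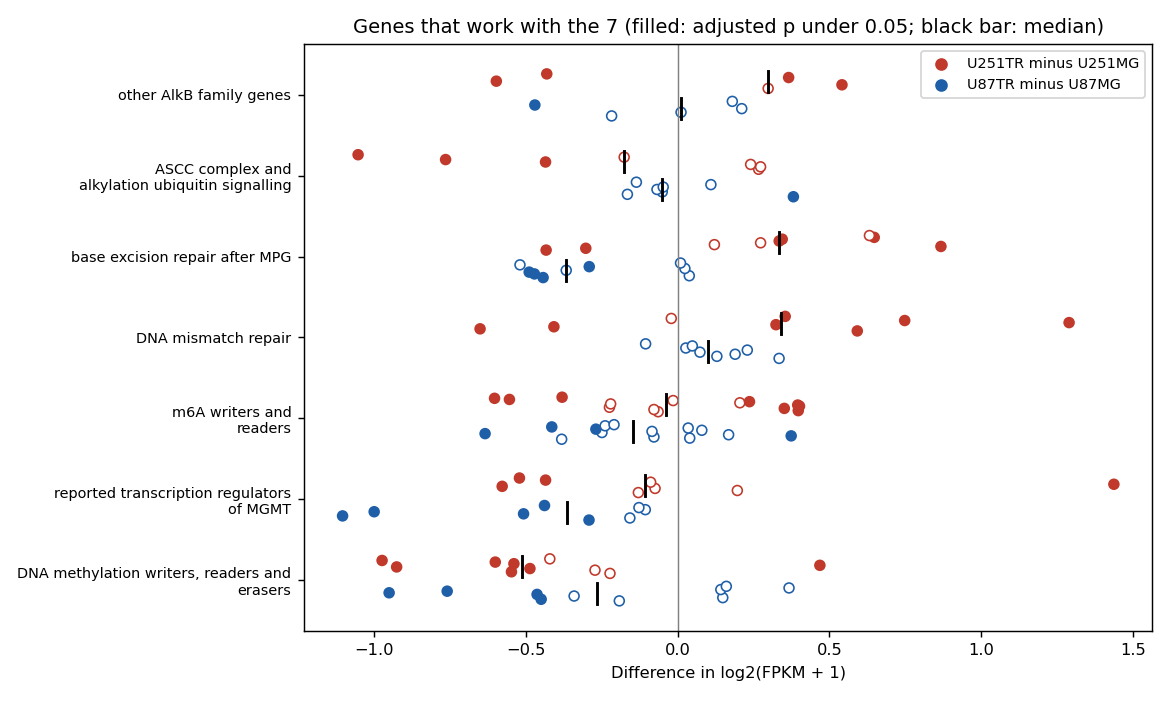
Differences in log2(FPKM + 1) (horizontal axis) for each gene of the 7 lists, in U251TR against U251MG and in U87TR against U87MG, with filled points at adjusted p under 0.05 and a black bar at the list median. The base excision repair list has its median at 0.33 in U251TR and -0.37 in U87TR, and the DNA methylation list lies at -0.51 and -0.27.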

How the data were processed

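RNA of 12 libraries was measured, 3 each of U251TR, U251MG, U87TR and U87MG. Per the submitters' processing notes, STAR 2.5.2b and RSEM 1.2.31 were used with hg19, while the design text names hg38. The annotation is not given in the sources used here. The deposited table holds FPKM made by the authors, a unit inferred from its values, since no header or label states it. No counts were used, so no counting interval is given. From 31681 symbol rows, 27 turned into dates were left out.

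The 15449 genes that reached 1 FPKM in no fewer than 3 libraries were fitted on log2(FPKM + 1) with limma 3.58.1 (R 4.3.3), with trend and robust moderation and a group-means model over all 12 libraries, two-sided. The added 1 FPKM shrinks the difference of weakly expressed genes. The fit was tested on simulated data. Named genes were the 7 members, up to 3 called genes per list and resistance comparison with the largest difference, the genes most alike by Pearson r (5 for MGMT, 2 for the others, of which the first is printed), 8 neighbours of MGMT on each side, and the chromosome 10 genes changed at least 4-fold in U87TR. One gene that this rule names is not reported here. IFNL1, SP1 and NPRL3 were named after their values were seen. The members and lists were chosen with earlier results of these data known. Gene order came from the RefSeq table of GRCh38.p14, by symbol or synonym, and exon overlap from GENCODE. The alternatives were other pseudocounts, filters, scalings, moderation, a replicate block, 6 libraries alone, and each library left out.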

Additional observations from a re-analysis of the deposited data

Results flagged for a closer look

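MGMT differed in its change between the lines, by 4.54 on the log2(FPKM + 1) scale for the change in U87TR minus that in U251TR (limma, adjusted p = 5.035e-10). It averaged 224.1 FPKM in U87TR and 8.67 FPKM in U251TR, and was listed at 0 in both parents.

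MPG differed in its change between the lines by -0.89 (limma, adjusted p = 0.0002172). It was lower in 3 of 3 U87TR libraries than in every U87MG library, and higher in 3 of 3 U251TR libraries than in every U251MG library. Of all genes tested, 47.6% passed for the difference between the changes, 53.2% in U251TR and 27.8% in U87TR. The rise of MPG in U251TR did not pass with median-of-ratios factors (0.18, adjusted p = 0.1925). Number block of the library codes and line cannot be told apart in U87TR.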

How the results depend on the processing

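Over 34 results on the 7 genes, 741 alternative values were computed, of which 687 kept their direction and their side of the threshold, 8 lost the call, 18 gained one and 28 turned sign. The rise of MGMT, the falls of ALKBH2, the fall of MPG in U87TR and both differences between the changes passed throughout. Without single libraries, 3 to 4 of the 7 genes were called in U251TR, 3 to 4 in U87TR, 2 to 3 in the difference between the changes, 2 to 3 between the parents and 3 to 5 between the resistant lines. In those runs the share of all genes tested that passed moved as well. In the same order it was 46.4% to 57.8%, 19% to 36.8%, 41.6% to 54.3%, 68% to 74.3% and 67.6% to 77%. Quantile normalization called 5 in U251TR, against 54.1% of all genes tested, and median-of-ratios factors called 4 between the parents, against 72.3%.

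The values that turned sign were all small ones that did not pass in the FPKM as given. Median-of-ratios factors gave these: ALKBH5 in U251TR was -0.12, the differences between the changes were 0.0910 for ALKBH1, 0.0107 for ALKBH2 and 0.151 for ASCC3, ALKBH2 between the parents was 0.0740, and between the resistant lines ALKBH2 was 0.0847 and ASCC3 0.0682. After quantile normalization the same values, in that order, were -0.0328, 0.227, 0.0816, 0.215, 0.0549, 0.137 and 0.130. After rescaling to TPM ALKBH1 in U251TR was 0.0747. Without single libraries ALKBH1 ranged over -0.0673 to 0.0337 in U251TR, -0.175 to 0.00416 in U87TR and -0.150 to 0.0294 in the difference between the changes, ALKBH5 in U251TR over -0.0192 to 0.0783, ALKBH2 between the parents over -0.118 to 0.0504, and ASCC3 in the difference between the changes over -0.133 to 0.0619. The cause was not tested.

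No clear pairing by replicate number was seen. Same-numbered libraries deviated with r from -0.053 to 0.116 in the U251 lines and from -0.0579 to 0.0591 in the U87 lines. Not every library correlated best with its own number. With 3 libraries a line, these values cannot exclude a pairing. A fit with the replicate block called 8119 genes in U251TR, 4094 in U87TR and 7202 in the difference between the changes, and changed the call of none of the 7. Without counts, what depth limits cannot be given.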
